A study of Mus musculus with 4 samples.

Results

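The 10 genes described here make prostaglandins or receive them: Pla2g4a, Ptgs1, Ptgs2, Ptges, Ptges2, Ptges3, Ptgis, Ptgfr, Ptger2 and Ptger4. Every array probe whose RefSeq accession maps to one of them was taken, which gave 14 probes for 10 of the 20956 genes with a level. The cells were 3T3-L1, a clonal mouse line of fibroblast-like preadipocytes, and their total RNA was read on 4 one-colour arrays. Control cells and cells of the genotype lamp2a- were each taken at day 0, when the cultures were confluent in medium with 10% fetal bovine serum and antibiotics. The other control and lamp2a- cultures were taken at day 2 of adipogenesis, after insulin at 160 nM, the glucocorticoid dexamethasone at 250 nM and the phosphodiesterase inhibitor 1-methyl-3-isobutylxanthine at 0.5 mM were added to that medium. LAMP2A, 1 of the splice forms of LAMP2 in the lysosomal membrane, serves as receptor in chaperone-mediated autophagy. The lamp2a- cells were knocked down for it and are called knockdown cells below. The sources used here do not say how the knockdown was made. There is 1 culture and 1 array per group. Differences therefore cannot be set against a replicate spread, no p-value is given, and the number of arrays limits the precision.

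Prostaglandins are short-lived lipid signals. Phospholipases free arachidonate from membranes, the cyclooxygenases Ptgs1 and Ptgs2 turn it into prostaglandin H, and terminal synthases convert that product into the E, I, F and D prostaglandins or into thromboxane. Each product acts on its own G protein-coupled receptors. In preadipocyte cultures, signalling through the F receptor is known to hold back fat cell formation, the E receptor encoded by Ptger4 is also known as a brake, and prostacyclin, the I prostaglandin, is known to favour early steps of it.

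A level is the processed signal of a probe divided by the 75th percentile of its array, and is given as a multiple of that percentile. It can be compared between arrays for 1 probe, not between probes. A gene was called higher or lower where its level differed at least 2-fold between 2 arrays. Errors beside log2 ratios are spot errors, taken from 399 probes printed 10 times on every array, and they cover only the error within arrays. Bright genes are the 11394 genes whose mean level was above the 95th percentile of olfactory receptor genes, and 8 of the 10 prostaglandin genes were bright.

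Lamp2 itself was read by probes for 2 transcripts. In knockdown cells NM_001017959 was lower by 4.13-fold (day 0) and 3.51-fold (day 2), and NM_010685 by 1.29-fold and 1.08-fold. All 10 of the fibroblast and preadipocyte markers were well above background on every array, and their summed level ranged from 1031 to 1260. The sum does not follow each single marker. In knockdown against control, Thy1 was called lower at day 0 (2.98-fold). At day 2 Dcn was called higher (2.85-fold) and Pdgfrb lower (2.06-fold). Over the 2 days, control cells had 0 of the 10 called higher and 2 lower, Pdgfrb and Dcn. Knockdown cells had 1 called higher, Fn1, and 1 lower, Pdgfrb. Markers of other cell types were mixed. The 7 macrophage and leukocyte markers on the array were well above background on every array and their summed level ran from 19.3 to 37.9. Among them Itgam stood at 14.2 to 35.0, Csf1r at 1.73 to 2.63 and the leukocyte gene Ptprc at no more than 0.0772. In knockdown against control, 4 of the 7 read above 0 and 3 below at day 0, and 1 above and 6 below at day 2. Ptprc was called higher at day 0 (2.40-fold), and Lyz2 lower at day 0 (6.30-fold) and day 2 (4.44-fold). Of 6 endothelial markers (summed level 2.98 to 4.06), Kdr stood at 2.62 to 3.49 and Cdh5 at no more than 0.0487. Of 6 mast cell markers (0.596 to 0.802), Tpsb2 stood at 0.364 to 0.687 and Fcer1a was not well above background on any array. Of 5 epithelial markers (0.0603 to 0.388), Krt18 was well above background on every array and Epcam on none. Krt19 was so on all but the control day 0 array. Krt8 and Cdh1 were so on the knockdown day 0 array alone, Krt8 at least 12.9-fold above control. The part of these markers in the results was not tested. Slide 1 carried the control day 0 array and slide 2 the other 3, and in any comparison with that array a slide difference and a group difference cannot be told apart. Dim genes read low on that array: 67.4% of its spots were well above background against 78.7% to 88.6% on the others, and the median signal of olfactory receptor genes was 10.65 against 24.6 to 42.1. The knockdown against control comparison at day 0 and the day 2 against day 0 comparison in control cells share this array.

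Of the 10 genes, 9 were well above background on all 4 arrays and could be compared, and Ptger2 was so on none. Against control, knockdown cells at day 0 had 1 gene called higher, Ptgfr, and 1 called lower, Ptgis, where 22.6% of all 19270 genes compared were called (18.4% higher and 4.2% lower), and 8.72% of bright genes. At day 2 only Ptgfr was called of the 9 genes, where the shares were 6.99% of all genes (2.89% higher and 4.1% lower) and 6.63% of bright genes. From day 0 to day 2, control cells had Ptgs1 and Ptgfr called higher and Ptgis and Ptger4 called lower, against 28.1% of all genes (20% higher and 8.15% lower) and 15.4% of bright genes. Knockdown cells had Ptgs1, Ptges and Ptgfr called higher and Ptger4 and Pla2g4a called lower, against 14.1% of all genes (5.01% higher and 9.07% lower) and 15.4% of bright genes. No gene of the 9 had knockdown ratios at day 0 and day 2 that differed by 2-fold, where 19.8% of all genes and 9.29% of bright genes did. Over the 4 arrays, 6 of the 9 genes spanned at least 2-fold (Pla2g4a, Ptgs1, Ptges, Ptgis, Ptgfr and Ptger4), beside 41.1% of all genes well above background on every array and 31.1% of the bright ones. The members' median log2 ratios were -0.07, -0.00, 0.22 and -0.10 in the 4 comparisons in this order, beside 0.12, -0.00, 0.19 and 0.00 for all genes and -0.02, 0.04, 0.02 and 0.08 for bright genes. The prostaglandin genes thus moved in both directions, and their medians lay near those of all genes.

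**Figure D1:**
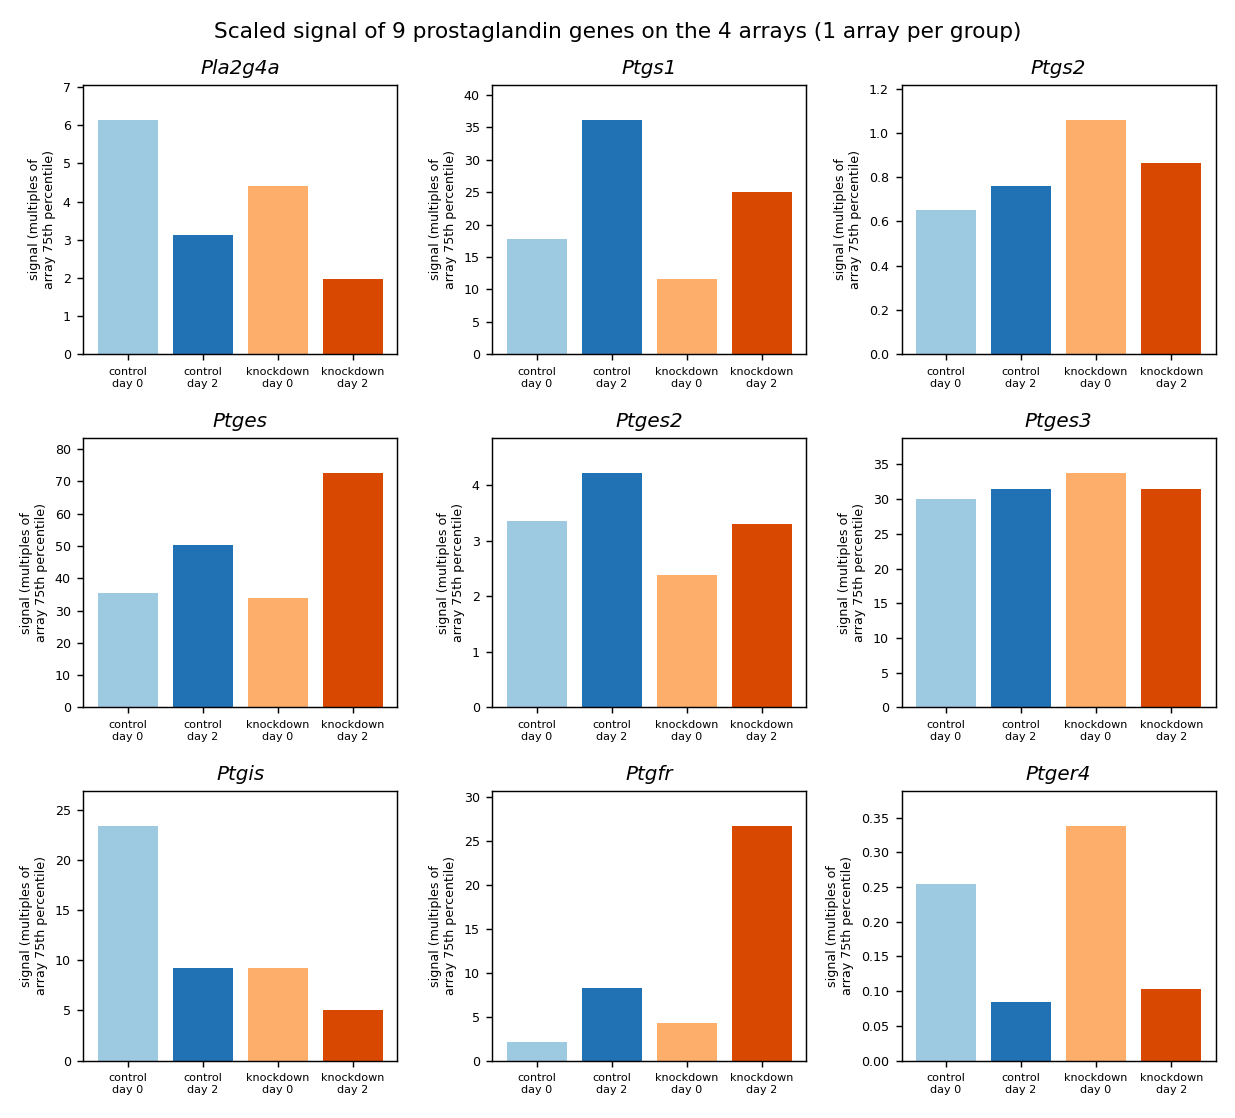
Level of 9 prostaglandin genes on each of the 4 arrays, in multiples of the array's 75th percentile; each bar is 1 array and each panel has its own axis from 0. Ptgfr climbs from 2.16 in control cells at day 0 to 26.6 in knockdown cells at day 2, Ptgis runs the other way from 23.3 to 5.04, and Ptger4 is low at day 2 in both kinds of cell.

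Upstream of the prostaglandins, Pla2g4a encodes the cytosolic phospholipase that frees arachidonate. Its level was 6.13 in control and 4.41 in knockdown cells at day 0, and 3.13 and 1.97 at day 2. Both day 2 arrays thus lay below both day 0 arrays, and the knockdown array lay below the control array at each day. The fall over the 2 days was 2.23-fold in knockdown cells (log2 ratio -1.16 ± 0.07, spot error) and was called. In control cells the difference was 1.96-fold (-0.97 ± 0.06), just short of the threshold. Knockdown against control gave log2 ratios of -0.48 at day 0 and -0.66 at day 2, neither called.

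Ptgs1, the cyclooxygenase that most cells make at a steady rate, had levels of 17.7 in control and 11.6 in knockdown cells at day 0, and 36.1 and 25.1 at day 2. It was higher at day 2 by 2.04-fold in control cells (log2 ratio 1.03 ± 0.06) and by 2.16-fold in knockdown cells (1.11 ± 0.07). These values sit at the threshold: with normexp background correction, without detrending, and with quantile or cyclic loess normalization, neither was called, and the lowest log2 ratio was 0.92 in both. The knockdown array read 1.53-fold lower than control at day 0 and 1.44-fold lower at day 2, both short of 2-fold.

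Ptgs2, the inducible cyclooxygenase, is the member with the best measured level, because its probe was printed 10 times on each array. The spots of control cells at day 0 ran from 0.605 to 0.704 with a median of 0.657. In knockdown cells at day 0 they ran from 0.950 to 1.14 with a median of 1.08, and the ranges of these arrays did not overlap. How many of the 399 probes printed 10 times had separate ranges on these arrays was not counted. The spots repeat 1 probe on 1 array per group, so their spread covers only the error within arrays. The day 0 arrays lay on different slides, and a slide difference and a group difference cannot be told apart there. At day 2 the spots ran from 0.711 to 0.831 (median 0.755) in control cells and from 0.817 to 0.926 (median 0.854) in knockdown cells, and these ranges overlapped. Knockdown against control was 1.62-fold at day 0 (log2 ratio 0.69 ± 0.04) and 1.13-fold at day 2 (0.18 ± 0.03). The difference between these 2 log2 ratios was -0.51 ± 0.05. None of these reached 2-fold, and over all genes compared at day 0, 26.1% were at least as far above control (10.4% of bright genes). Over the 2 days of induction Ptgs2 was 1.16-fold higher in control cells and 1.23-fold lower in knockdown cells.

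The 250 bases before the Ptgs2 start, shown with its motif matches in capitals, hold the palindrome TTGCGCAA, a form of the site bound by C/EBP factors, and 1 GC box, GGGCGG. The window is on chromosome 1 of GRCm38.p6, chr1:150099781-150100030, plus strand, from RefSeq, and overlaps the annotated antisense gene Ptgs2os.
Ptgs2 promoter: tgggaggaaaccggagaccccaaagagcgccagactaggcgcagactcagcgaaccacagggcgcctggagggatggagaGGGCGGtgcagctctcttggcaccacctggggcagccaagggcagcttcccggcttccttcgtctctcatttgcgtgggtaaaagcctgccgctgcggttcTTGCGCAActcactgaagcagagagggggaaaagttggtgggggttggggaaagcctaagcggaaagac
The palindrome lies 69 to 62 bases before the start. Of 32817 promoter windows of this length, 0.165% hold it, and Ptgs2 was the only one of the 9 prostaglandin genes with a promoter in the RefSeq table that did.

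Of the 3 prostaglandin E synthases, Ptges is the inducible membrane enzyme that is known to work with Ptgs2. Its brightest probe had levels of 35.5 in control and 33.8 in knockdown cells at day 0, a log2 ratio of -0.07 ± 0.07. At day 2 the levels were 50.3 in control and 72.5 in knockdown cells. The rise over the 2 days was 2.15-fold in knockdown cells (1.10 ± 0.07) and was called, except with quantile or cyclic loess normalization, the lowest of which gave 0.86. In control cells the difference was 1.42-fold (0.50 ± 0.06). Its second probe had levels of 3.65, 3.02, 5.73 and 7.43 on the control and knockdown arrays of day 0 and then of day 2, and was 2.46-fold higher at day 2 in knockdown cells, so both probes passed 2-fold there. Between the kinds of cell at day 0 it gave -0.27 ± 0.07.

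Ptges2, a membrane-associated E synthase, had levels of 3.36 and 2.38 in control and knockdown cells at day 0, and 4.21 and 3.30 at day 2. Its differences of 1.41-fold and 1.28-fold between the kinds of cell, and of 1.25-fold and 1.39-fold between the days, all stayed below the threshold. Ptges3, the cytosolic E synthase that is also the Hsp90 co-chaperone p23, had 4 probes. The brightest stood at 30.1 and 33.7 at day 0 and at 31.5 in both kinds of cell at day 2. The largest difference of any Ptges3 probe was 1.39-fold, and in the day 2 against day 0 comparisons the probes differed in sign. Ptges3 was the member with the smallest span over the 4 arrays, 1.12-fold for its brightest probe.

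Ptgis, the synthase of prostacyclin, had the highest level in control cells at day 0. The levels were 23.3 in control and 9.25 in knockdown cells at day 0, and 9.20 and 5.04 at day 2. The 2 middle arrays, knockdown day 0 and control day 2, could not be told apart, and the lowest and highest were 4.63-fold apart. Knockdown cells had 2.52-fold less Ptgis than control cells at day 0 (log2 ratio -1.33 ± 0.07). Of all genes compared, 2.78% lay at least as far below control, and 1.72% of bright genes. At day 2 the difference was 1.83-fold (-0.87 ± 0.07), which was not called. Control cells fell by 2.54-fold from day 0 to day 2 (-1.34 ± 0.06), and knockdown cells were 1.84-fold lower (-0.88 ± 0.07), not called except with cyclic loess normalization (-1.02). Both called values rest on the control day 0 array. In these bulk samples, fewer cells of a type and less RNA per cell cannot be told apart.

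Ptgis and Pla2g4a were the members whose log2 ratio was below 0 in all 4 comparisons, a pattern of any size that 11% of genes and 14.2% of bright genes had. Ptgfr was the member called higher in all 4. Of 18333 genes compared throughout, 35 (0.191%) were at least 2-fold higher in all 4 comparisons, and of the bright genes 16 (0.14%) were. Because the 4 comparisons share arrays, they are not independent of each other.

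Ptgfr encodes the receptor for the F prostaglandins, which couples to Gq and calcium release. Its levels were 2.16 in control and 4.33 in knockdown cells at day 0, and 8.27 in control and 26.6 in knockdown cells at day 2. The unscaled processed signals were 3440, 7217, 10250 and 29373 in the same order, so the order of the arrays does not come from the scaling. The lowest and highest arrays were 12.3-fold apart, the widest span of any member. Knockdown cells had 3.22-fold more Ptgfr than control cells at day 2 (log2 ratio 1.69 ± 0.06), and 156 genes, 0.84% of those compared, were at least as far above control. At day 0 the difference was 2.00-fold (1.00 ± 0.08), at the threshold itself: it was 0.94 to 1.07 over the other settings, and was not called with normexp background correction or without detrending. At day 0, 18.3% of all genes were at least as far above control, and 5.59% of bright genes.

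Over the 2 days of induction Ptgfr rose 3.82-fold in control cells (1.93 ± 0.06) and 6.15-fold in knockdown cells (2.62 ± 0.07). In control cells 4.23% of all genes and 1.49% of bright genes rose at least as far. In knockdown cells 104 genes did, 0.542% of those compared. Ptgfr and Ptgs1 were the members called higher over both courses, as 2.42% of all genes and 2.83% of bright genes were. The rise of Ptgfr was 1.61-fold larger in knockdown cells (0.69 ± 0.10), which did not reach 2-fold. The summed level of 6 fat cell markers took the same order over the arrays, at 0.71 and 3.53 in control and knockdown cells at day 0 and 7.13 and 38.7 at day 2. Among them Fabp4, the fatty acid binding protein, stood at 0.57, 3.04, 6.23 and 38.2 on these arrays. The other 5, Adipoq, Plin1, Cidec, Lep and Cfd, each stayed at or below 0.305 and were highest in control cells at day 2. The part of these fat cell markers in the Ptgfr values was not tested.

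**Figure D2:**
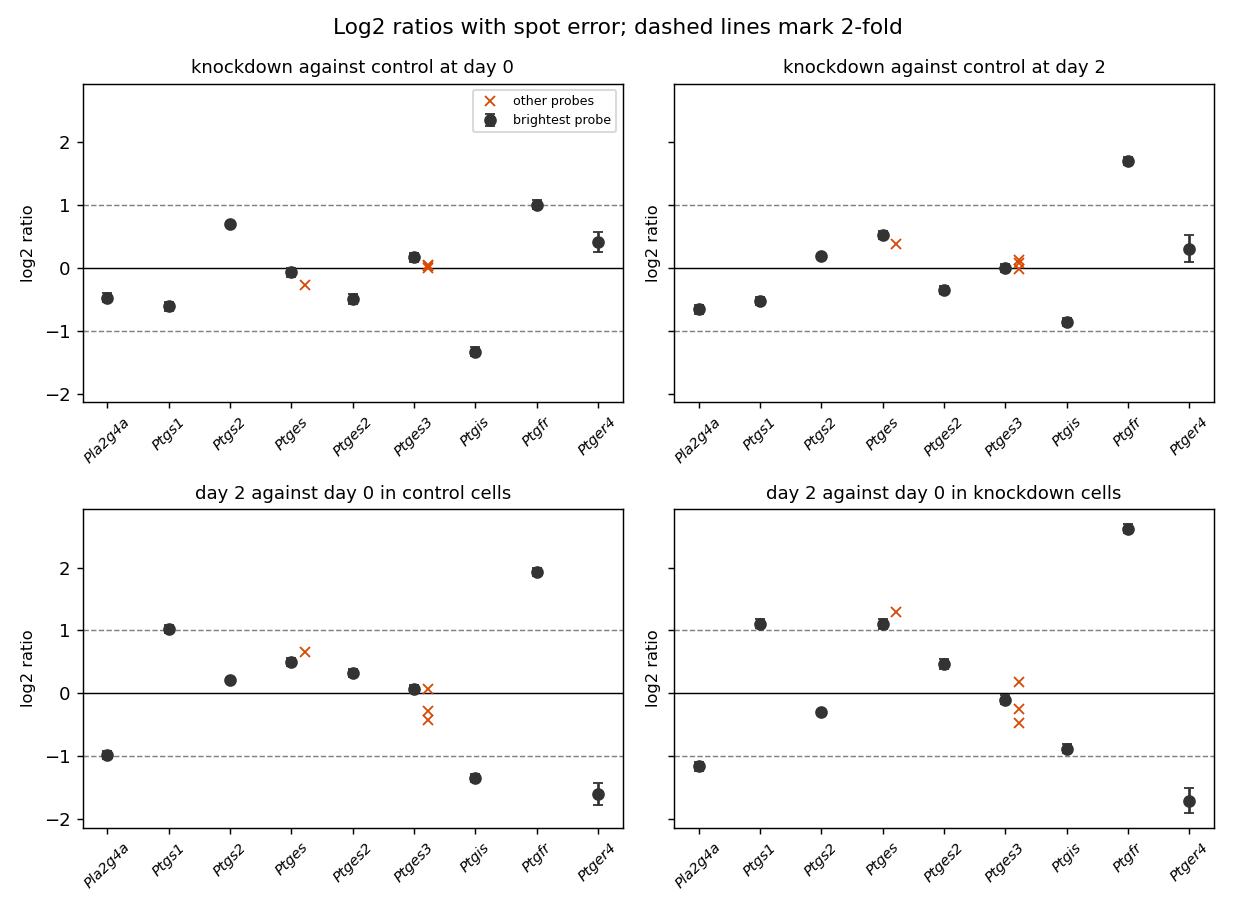
Log2 ratio of each compared gene in the 4 comparisons, with spot error bars; black points are the brightest probe of a gene, orange crosses its other probes, and dashed lines mark 2-fold. Ptgfr lies at or above the upper line in every panel, at 1.00, 1.69, 1.93 and 2.62, and the probes of Ptges3 stay near 0.

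Because Ptgfr had the largest rise and Ptger4 the largest fall over the 2 days among the 9 genes, their promoters are shown for comparison, both 250 bases before the start from the RefSeq table of GRCm38.p6, minus strand. The Ptgfr window is chr3:151837529-151837778 and the Ptger4 window is chr15:5244188-5244437. Capitals mark GC boxes, searched on both strands as GGGCGG.
Ptgfr promoter: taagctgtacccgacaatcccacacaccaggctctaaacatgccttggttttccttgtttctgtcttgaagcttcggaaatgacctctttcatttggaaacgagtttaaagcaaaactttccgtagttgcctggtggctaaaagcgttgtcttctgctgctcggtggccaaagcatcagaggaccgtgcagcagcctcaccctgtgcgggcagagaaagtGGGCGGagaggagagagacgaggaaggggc
Ptger4 promoter: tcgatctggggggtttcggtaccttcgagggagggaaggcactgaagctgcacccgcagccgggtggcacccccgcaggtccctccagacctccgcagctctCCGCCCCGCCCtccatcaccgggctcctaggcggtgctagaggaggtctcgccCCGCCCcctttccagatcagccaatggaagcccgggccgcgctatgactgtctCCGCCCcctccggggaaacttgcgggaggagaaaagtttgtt
The Ptgfr window held 1 GC box, 30 to 25 bases before the start, and the Ptger4 window held 4, of which the 2 farthest from the start share 1 base. A GC box was found in 32.7% of all windows and in 5 of the 9 prostaglandin genes, Ptgs2, Ptges, Ptges3, Ptgfr and Ptger4. Neither window held the core TGACGT of the cyclic AMP response element, found in 6.46% of all windows and in none of the 9 genes. The hexamer AGAACA, bound by the glucocorticoid receptor as part of a longer palindrome and found in 16.1% of all windows, was in a window of Ptgs1, Ptges, Ptger2 and Pla2g4a. Those 4 genes included 2 called higher, 1 called lower and 1 not well above background. That longer palindrome, the hexamer and its reverse complement spaced by NNN, was in 0.00914% of all windows and in no window of the 9 genes. The E-box CACGTG, in 6.02% of windows, was found in that of Ptges2, and the TATA box TATAAA, in 12.4%, in 1 of the 2 windows of Pla2g4a. A match is a description of letters within these 250 bases and says nothing of binding.

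Ptger4 encodes the EP4 receptor for prostaglandin E, which raises cyclic AMP. It was dimmer than the bright genes. Its levels were 0.255 in control and 0.337 in knockdown cells at day 0, and 0.0843 and 0.104 at day 2, from processed signals of 405, 562, 105 and 114. Both day 2 arrays lay well below both day 0 arrays. The fall was 3.02-fold in control cells (log2 ratio -1.60 ± 0.18) and 3.25-fold in knockdown cells (-1.70 ± 0.20), and was called in every other setting that gave a value, from -2.37 to -1.27 in control and from -1.73 to -1.24 in knockdown cells. From day 0 to day 2, 8.15% of all genes fell at least 2-fold in control cells and 9.07% in knockdown cells, and 4.83% did so in both. Between the kinds of cell, Ptger4 differed by 1.32-fold at day 0 (0.41 ± 0.16) and 1.23-fold at day 2 (0.30 ± 0.22), and the sign at day 0 depended on the setting (-0.34 to 0.47). Ptger2, the EP2 receptor that also raises cyclic AMP, had processed signals of 5.72 and 7.90 at day 0 and 3.39 and 4.04 at day 2, not well above background on any array. Of the 2 E receptors among the members, Ptger4 was thus well above background on every array and Ptger2 on none.

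**Figure D3:**
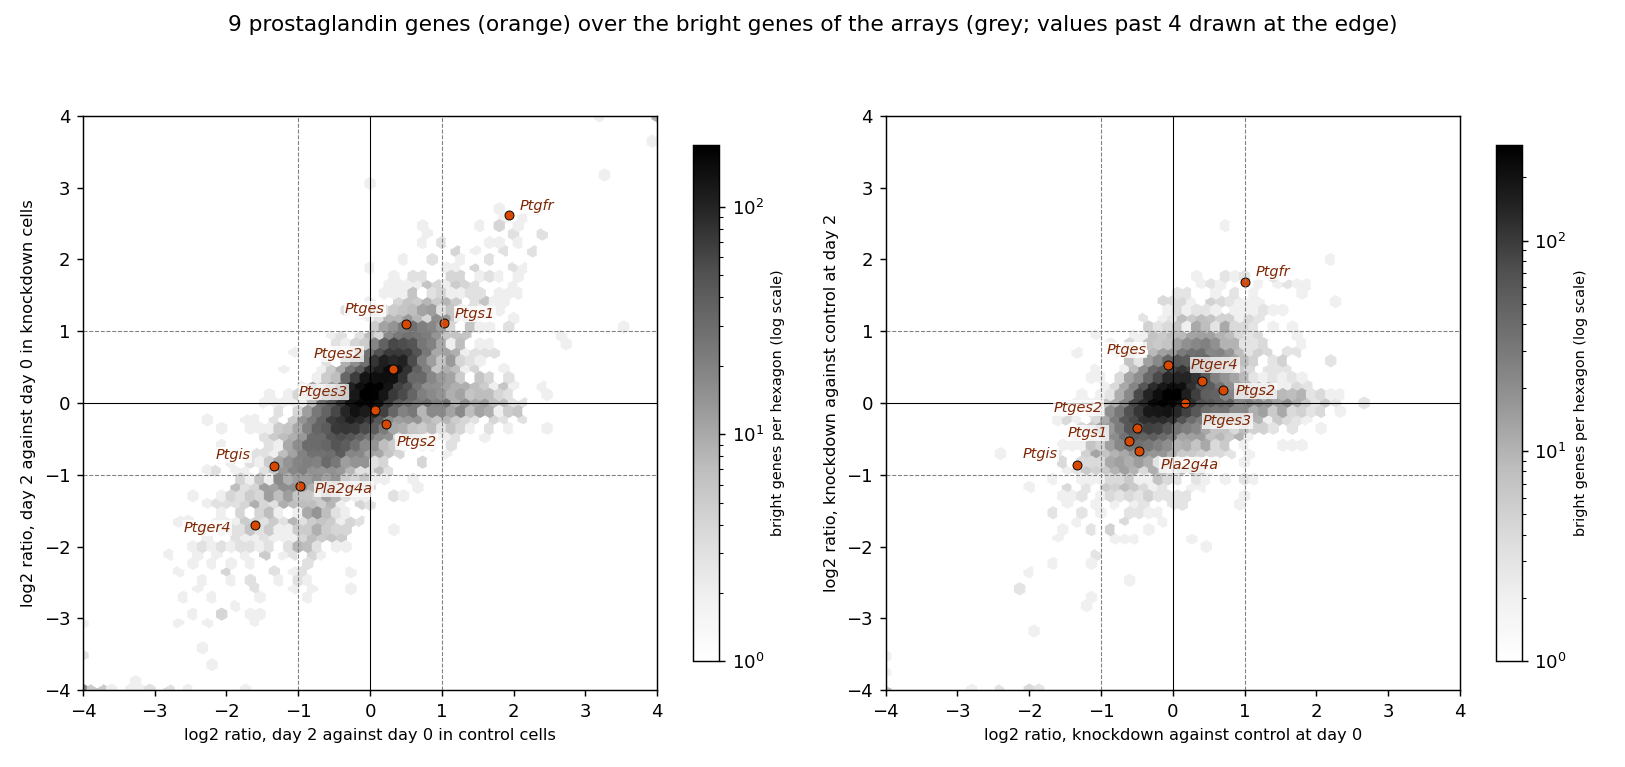
Log2 ratios of 9 prostaglandin genes (orange) over all bright genes (grey hexagons, darker with more genes on a log scale), for day 2 against day 0 in control and knockdown cells (left) and for knockdown against control at day 0 and day 2 (right). Each panel sets 2 comparisons without a common array against each other, and Ptgfr lies at the upper right in both, at 1.93 and 2.62 and at 1.00 and 1.69.

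The genes whose pattern over the 4 arrays was most like that of a member were sought among 15464 other genes well above background on every array. The measure was the largest absolute difference between the gene-centred log2 levels on any array. For Ptgfr the nearest were Magel2 (0.16), Trib1 (0.23) and Cfhr2 (0.27). Ptgis had Eif2ak2 (0.07), Ece2 (0.12) and Comtd1 (0.16), and Ptgs1 had Anapc16 (0.06), Apbb3 (0.07) and Reep3 (0.08). Nearest to Ptges were Frs3 (0.02), Cacfd1 (0.045) and Cd164 (0.05), and nearest to Ptger4 were Pcyt1b (0.03), Chrnb1 (0.04) and Ntf5 (0.07). Pla2g4a was most like Mettl18 (0.03), Lpar1 (0.05) and Cyb561d2 (0.055). With 4 arrays, near matches are easily found among so many genes. No match of Ptgfr was as near as the first match of any other of these members. The measure is not scaled to the span of a gene, and Ptgfr had the widest span of the members, 12.3-fold. Among the members themselves, Ptgis was nearest to Pla2g4a (0.45) and Ptgs1 to Ptges2 (0.42), whereas the member nearest to Ptgfr was Ptges (1.32).

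The rest of the arachidonate pathway was followed with 47 further genes, of which 46 were on the array and 23 were bright. Among the bright ones, knockdown against control called 3 higher and 2 lower at day 0 and 1 higher and 1 lower at day 2. Of all bright genes, 8.72% were called either way at day 0 and 6.63% at day 2. Day 2 against day 0 called 2 higher and 4 lower in control cells, and 2 higher and 7 lower in knockdown cells. In each of these courses 15.4% of all bright genes were called either way. Their median log2 ratios were -0.20, -0.03, -0.22 and -0.16 in these comparisons, beside -0.02, 0.04, 0.02 and 0.08 for all bright genes.

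Of 7 other prostanoid synthases, 3 were bright, and of these Akr1b3, an aldose reductase that also makes F prostaglandin in the mouse, was called. Its levels were 26.8 in control and 28.5 in knockdown cells at day 0, and 88.4 and 136.5 at day 2. The rise was 3.30-fold in control cells (log2 ratio 1.72 ± 0.06) and 4.79-fold in knockdown cells (2.26 ± 0.07). A second probe gave 1.82 and 2.40. Between the kinds of cell Akr1b3 differed by 1.06-fold at day 0 and 1.54-fold at day 2, below the threshold. Prxl2b and Akr1c18, which also have F synthase activity, read the other way over the 2 days. Cbr1, a bright gene of the same list, did not, with log2 ratios of 0.07 in control and 0.29 in knockdown cells, neither called. Prxl2b, which was bright, had log2 ratios of -0.52 in control and -0.32 in knockdown cells, neither called. Akr1c18, which was dim, was 2.02-fold lower in control cells (-1.02 ± 0.22), not called with normexp background correction or with the percentile of detected probes (-0.73 at the smallest), and 1.67-fold lower in knockdown cells, not called. Hpgds, one of the D synthases, was not well above background on any array. Ptgds, another D synthase, was dim but well above background on every array. Over the 2 days Ptgds was 1.80-fold lower in control cells, not called, and 2.37-fold lower in knockdown cells. Tbxas1, the thromboxane synthase, was dim and not well above background on the knockdown day 2 array. It was 8.79-fold lower in knockdown cells than in control cells at day 0 (-3.14 ± 0.38). Over the control course Tbxas1 fell 5.91-fold (-2.56 ± 0.35), and both values rest on the control day 0 array.

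Among 6 other prostanoid receptors, Ptger1, the EP1 receptor for prostaglandin E, had levels of 0.736 in control and 0.246 in knockdown cells at day 0, and 0.408 and 0.122 at day 2. Knockdown cells had 2.99-fold less at day 0 (-1.58 ± 0.15) and 3.34-fold less at day 2 (-1.74 ± 0.16). From day 0 to day 2 it fell 2.01-fold in knockdown cells (-1.01 ± 0.19), though not with normexp background correction (-0.72). Ptger1 was the only bright gene of the 23 called lower in knockdown cells at day 2. The thromboxane receptor Tbxa2r had levels of 0.786 and 0.257 in control and knockdown cells at day 0, and 0.159 and 0.118 at day 2. At day 0 knockdown cells had 3.06-fold less (-1.61 ± 0.14). Tbxa2r fell 4.94-fold over the 2 days in control cells (-2.30 ± 0.12) and 2.17-fold in knockdown cells (-1.12 ± 0.19), the last not with normexp background correction (-0.83). The prostacyclin receptor Ptgir had log2 ratios of -0.21, 0.63, -0.92 and -0.08, none called, although quantile and cyclic loess normalization called it lower over the control course (lowest -1.28). Ptgdr, a D receptor, was not well above background on any array.

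In the list of breakdown and transport, Abcc4, an exporter of prostaglandins, rose 2.26-fold in control cells (1.18 ± 0.07) and 2.74-fold in knockdown cells (1.45 ± 0.09). Ptgr1, a reductase that inactivates prostaglandins, fell 2.41-fold in control cells (-1.27 ± 0.07) and 2.17-fold in knockdown cells (-1.12 ± 0.08). Hpgd, the dehydrogenase that starts prostaglandin breakdown, was well above background on 1 array alone. The transporter Slco2a1 was well above background on all 4 arrays but not bright. It was 2.08-fold higher in knockdown cells at day 0 (1.06 ± 0.19), not with normexp, quantile or cyclic loess (lowest 0.34), and fell 3.13-fold over the 2 days in knockdown cells (-1.65 ± 0.20).

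In the list of arachidonate release, Pla2g7, which hydrolyses platelet-activating factor rather than freeing arachidonate, had the widest range. Its levels were 8.87 in control and 24.6 in knockdown cells at day 0, and 1.74 and 2.33 at day 2. Knockdown cells had 2.77-fold more of it at day 0 (1.47 ± 0.07). It fell 5.11-fold over the 2 days in control and 10.6-fold in knockdown cells, with a second probe on the same side throughout. Dagla, a diacylglycerol lipase, was 2.05-fold higher in knockdown cells at day 2 (1.04 ± 0.07), except with cyclic loess or normexp (lowest 0.98), and fell 3.04-fold over the 2 days in control cells (-1.60 ± 0.07). Anxa1, a glucocorticoid-responsive annexin known to restrain phospholipases, fell 2.58-fold in knockdown cells (-1.36 ± 0.07) and was 1.49-fold lower in control cells, not called. Its second probe gave -1.54 in knockdown cells and -0.94 in control cells, and the difference between the courses did not reach 2-fold. Plaat3 (also called adipose phospholipase), at 4.02, 3.56, 3.45 and 3.76, was called in no comparison.

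**Figure D4:**
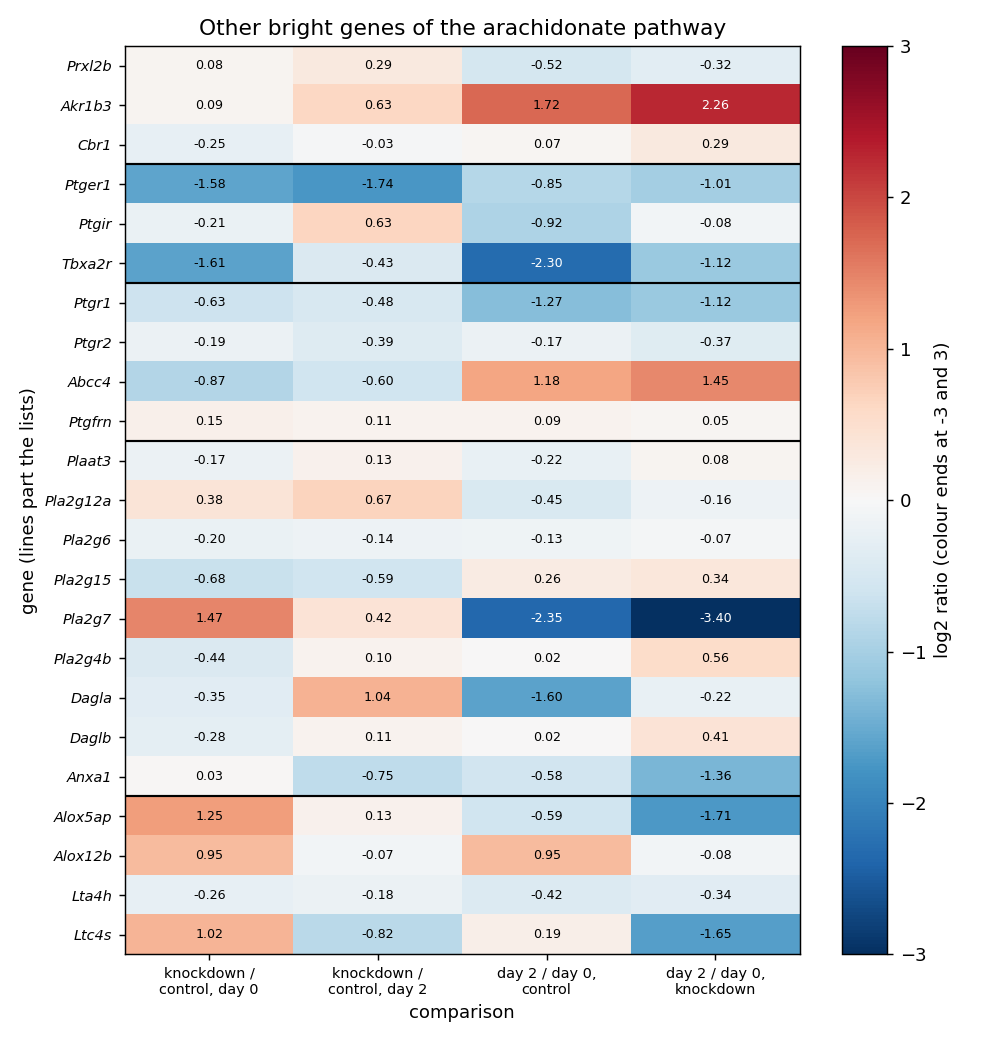
Log2 ratios of the 23 other bright genes of the arachidonate pathway in the 4 comparisons, from blue (lower) to red (higher), with the value in each cell; black lines part the synthases, receptors, breakdown and transport genes, release genes and the leukotriene branch. Akr1b3 is red at day 2 in both kinds of cell (1.72 and 2.26), Ptger1 is blue in all columns, and Pla2g7 is red in knockdown cells at day 0 (1.47) and blue at day 2.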

How the data were processed

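Total RNA from 4 cultures was labelled with Cy3 and hybridised to Agilent mouse arrays of design 028005, 1 culture per array, per the labels and file headers. Agilent Feature Extraction 10.7.3.1 made the deposited processed signals, intensity values on a linear scale with a spatial background subtracted, per the file headers; a multiplicative detrending was applied on 3 arrays and not on the knockdown day 0 array. Groups come from the labels. Control spots and outlier spots were left out. The log2 signal minus the array's 75th percentile is the level, repeat spots were averaged, and the probe with the highest mean level stands for a gene. Probes were named through RefSeq accessions (27656 matched, 28025 did not) in a table of GRCm38.p6; promoter windows of 9 of the 10 genes come from the same source.

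Genes were compared if well above background on 1 or both arrays of a comparison; on only 1, the difference is a bound. Spot errors of probes printed once come from the 50 probes printed 10 times that were nearest in level, and those of Ptgs2 from its own 10 spots. With 1 array per group no test was run. The text names all 10 members, Lamp2, and pathway genes that were bright and called in at least 1 comparison. It also names the 3 genes most like each member that spanned 2-fold. Prxl2b, Akr1c18, Cbr1, Ptgds, Hpgds, Ptgir, Ptgdr, Plaat3, Hpgd and Slco2a1 were named after their values were seen. So were Ptger3, Ptgdr2, Tbxas1, Alox5, Lta4h, Alox12b and the single cell type markers. The members and lists were chosen with earlier results of these data known. Other settings were normexp (offset 50, on the median signal, since the files hold no mean signal), the background-subtracted signal, and quantile and cyclic loess (3 iterations) normalization. Further settings were another percentile, other filters, the median of a gene's probes, outlier spots kept, and a 1.5-fold size. They were also applied to other named pathway genes, a choice made after seeing the data. Not included were Cbr1, Ptgds, Alox5, Lta4h, Alox12b, Ptger3, Ptgdr2 and Tbxas1. Calling was tested on simulated data. The tools were R 4.3.3 with limma 3.58.1, and Python 3.11.15 with matplotlib 3.10.9, numpy 2.4.6 and pandas 2.3.3.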

Additional observations from a re-analysis of the deposited data

How the results depend on the processing

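Of the 12 member values called in the 4 comparisons, all 12 kept their sign under the other settings that gave a value, and 8 kept their call in all of these. The exceptions were Ptgs1 over both time courses, Ptges over the knockdown course and Ptgfr at day 0, each close to 2-fold. Members called in knockdown against control at day 0 numbered 2, and 1 with normexp, 1 without detrending and 4 at a size of 1.5-fold. At day 2 the count of 1 became 3 at 1.5-fold, the knockdown course went from 5 to 3 with quantile normalization, and the difference between the knockdown ratios from 0 to 2 at 1.5-fold. Of 22 called values of the 10 other pathway genes named as bright and called, 22 kept their sign and 18 their call.

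Counts over all genes moved more, the cause not being tested. At day 0 the 4349 genes called in knockdown against control were 1921 with normexp, 2398 with quantile, 2720 with cyclic loess, 6642 without a filter, 7356 at 1.5-fold and 994 among bright genes. At day 2, 1298 became 817 with normexp, 2036 without a filter, 3198 at 1.5-fold and 755 among bright genes. In control cells over time, 5251 became 2966 with normexp, 3403 with quantile, 8611 at 1.5-fold and 1749 among bright genes. In knockdown cells, 2702 became 5628 at 1.5-fold and 1754 among bright genes. The 3058 genes whose knockdown ratios differed became 1590 with normexp, 1960 with quantile, 7119 without a filter, 5380 at 1.5-fold and 1058 among bright genes. Of the calls at day 0, 81.4% were higher, against 70.2% with normexp, 46% with quantile and 36.5% with cyclic loess; over the control course the shares were 71.1%, 37.3% with quantile and 30.5% with cyclic loess. Of the genes whose knockdown ratios differed, 14.7% were higher at day 2, against 44.7% with quantile and 56.9% with cyclic loess. The median of all genes, 0.12 at day 0 and 0.19 over the control course, was 0.00 with quantile normalization.

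With 1 array per group, there was no replicate to leave out. No paired analysis was possible because each group has 1 array and the labels carry no numbers shared across groups. Ptger4 has no value among bright genes, and Ptger2 has none with a filter on background. Signal over background limits the dim genes: Ptger4 has a spot error of 0.16 to 0.22.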

Other observations

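The leukotriene branch of arachidonate metabolism, in which 5-lipoxygenase and its partners make leukotrienes, held 11 genes on the arrays, of which 4 were bright. Alox5, which encodes 5-lipoxygenase, was dim. Its level was 0.00549 in control cells at day 0, not well above background, and at most 0.0287 on the other arrays. Of the bright genes, Lta4h and Alox12b were called in none of the 4 comparisons. Alox12b had a log2 ratio of 0.95 in knockdown against control at day 0. In that comparison 5 of the 11 genes were called higher and 0 lower. Of all genes, 18.4% were called higher there and 4.2% lower. Alox5ap, the protein that presents arachidonate to 5-lipoxygenase, had levels of 0.673 in control and 1.60 in knockdown cells at day 0, and 0.447 and 0.487 at day 2. It was 2.37-fold higher in knockdown cells at day 0 (log2 ratio 1.25 ± 0.08) and fell 3.27-fold over the 2 days in knockdown cells (-1.71 ± 0.10). Ltc4s, the leukotriene C synthase, had levels of 1.35 in control and 2.73 in knockdown cells at day 0, then 1.53 in control and 0.869 in knockdown cells. It was 2.03-fold higher in knockdown cells at day 0 (1.02 ± 0.08), not called with cyclic loess (0.96), and 1.76-fold lower at day 2, which did not reach 2-fold. Over the 2 days Ltc4s fell 3.14-fold in knockdown cells (-1.65 ± 0.08). Alox5ap and Ltc4s were highest on the knockdown day 0 array, the one without detrending. The part of detrending in these values was not tested. In the setting without detrending, both were also called in knockdown against control at day 0. In that comparison a slide difference and a group difference cannot be told apart.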
